A study of Drosophila melanogaster with 3 samples.

Results

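Genes for the translation initiation and elongation factors of Drosophila melanogaster were examined for binding by CG9727-eGFP in embryos. The set was defined by name, as the protein-coding genes of the Ensembl annotation whose symbol starts with eIF or eEF, and held 52 of the 13945 protein-coding genes on the 6 main chromosome arms. Chromatin immunoprecipitation followed by sequencing (ChIP-seq) used an antibody against GFP on sonicated chromatin of mixed-sex whole embryos, 0 to 24 h of age, from a single transgenic line. All 3 samples came from this line, in which GFP is fused to the C-terminus of CG9727, and they form 1 group with no second condition. They carry the numbers of biological replicates 1, 2 and 3, and the labels do not say whether they are separate embryo collections, so the spread between them may be technical. A control enters only through the peak lists, no precipitate without the fusion was compared, and whole embryos mix all cell types. The promoter that drives the fusion is not given in the sources used here.

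Initiation factors bring the initiator tRNA, the small ribosomal subunit and a capped mRNA together, find the start codon and let the large subunit join. Elongation factors then deliver each aminoacyl-tRNA and move the ribosome along the message. In early fly embryos much patterning rests on control of maternal mRNAs at the initiation step, and many fly genes of the translation machinery start at a pyrimidine-rich TCT initiator in place of the usual initiator. Other letters common at promoters of broadly expressed fly genes are the DNA replication-related element (DRE) and Motif 1.

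The sequences below show what lies under the summits and starts that the results turn on. All are read 5′ to 3′ on the strand of the gene from the RefSeq copy of the dm6 assembly. The first set spans 50 bp on either side of a thresholded summit, at the elongation factor gene eEF1gamma (chr3R:29220111-29220211, plus strand), the eIF3 subunit gene eIF3a (chr3R:4433889-4433989, minus strand), the cap-binding repressor gene eIF4EHP (chr3R:24109145-24109245, minus strand) and the start-site selection factor gene eIF1 (chr3L:3223188-3223288, plus strand). Capitals mark matches on either strand to TATCGATA (DRE), GGTCACAC (Motif 1), the TATA-like letters TATAAA, the repeat GAGAG or the E-box letters CAGCTG. The first pair was chosen because the DRE letters lay inside the window, and the second pair because these summits were among the strongest of the set. eIF4EHP held TATAAA on each strand, and the eIF1 window held none of the letters searched.
eEF1gamma summit: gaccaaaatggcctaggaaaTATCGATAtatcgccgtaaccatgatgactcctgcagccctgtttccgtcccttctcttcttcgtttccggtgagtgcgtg
eIF3a summit: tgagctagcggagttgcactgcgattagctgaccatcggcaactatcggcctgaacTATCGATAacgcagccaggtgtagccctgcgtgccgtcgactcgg
eIF4EHP summit: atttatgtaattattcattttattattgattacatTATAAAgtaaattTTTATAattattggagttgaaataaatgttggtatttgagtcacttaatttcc
eIF1 summit: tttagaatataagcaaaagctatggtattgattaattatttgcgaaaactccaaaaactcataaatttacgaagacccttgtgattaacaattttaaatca
The second set spans 30 bp on either side of an annotated transcription start site (TSS), which is the middle base. It shows TCT-like starts, with T or C followed by CTTT in capitals, at 2 genes called bound, eEF2 (chr2L:21682086-21682146, minus strand) and eIF4A (chr2L:5981734-5981794, plus strand), and at 2 genes not called bound, eIF3f1 (chr3R:4714152-4714212, minus strand) and eIF3i (chr2L:4967745-4967805, minus strand).
eEF2 start: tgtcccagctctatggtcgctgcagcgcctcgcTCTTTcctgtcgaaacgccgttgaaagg
eIF4A start: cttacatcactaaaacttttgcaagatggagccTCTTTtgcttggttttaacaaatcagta
eIF3f1 start: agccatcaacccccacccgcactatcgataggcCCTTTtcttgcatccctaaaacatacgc
eIF3i start: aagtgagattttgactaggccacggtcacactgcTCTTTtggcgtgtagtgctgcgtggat

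A gene was called bound when at least 1 of its TSSs had a summit of the thresholded list no more than 500 bp away. That list was made by the authors from all 3 replicates by irreproducible discovery rate (IDR) and holds 7896 peaks. By this rule 19 of the 52 factor genes (36.5%) were bound, beside 27.0% of all protein-coding genes. In the 7896 strongest peaks of replicates 1, 2 and 3, 22, 16 and 22 factor genes had such a summit (42.3%, 30.8% and 42.3%), beside 27.8%, 26.4% and 27.0% of all coding genes. The mean was 38.5% ± 6.66 (SD, n = 3) for the factor genes and 27.1% ± 0.710 (SD, n = 3) for all coding genes. Each replicate's share was above that of all genes, but the excess in replicate 2 was smaller than the SD of the factor genes. No test of the difference was made, since genes are not replicates.

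**Figure D1:**
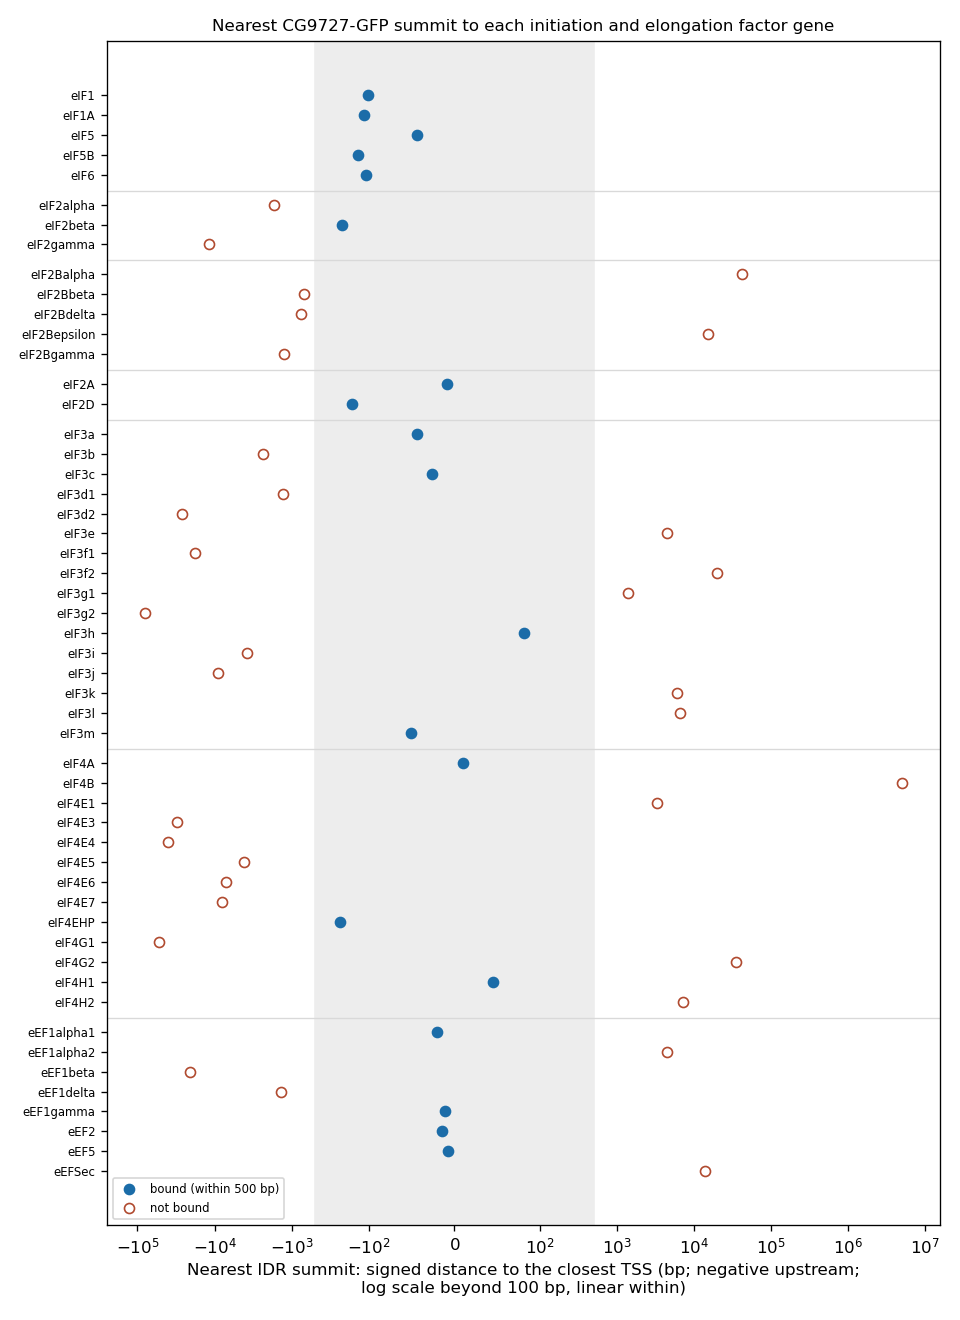
Signed distance in bp from the closest TSS of each of the 52 factor genes to its nearest IDR summit, negative upstream, on an axis that is linear within 100 bp and logarithmic beyond. Filled points are the 19 bound genes, open points the 33 others, grey the 500 bp window. No gene has its nearest summit between 300 and 500 bp from a TSS.

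The factor genes were next described by their step in translation, beside the 27.0% of all coding genes bound. The groups follow roles in translation, but start-site selection, subunit joining and subunit anti-association were put together in a single group. The grouping was made after the calls were seen, the groups are small, and none was tested. Of the factors for start-site selection, subunit joining and subunit anti-association (eIF1, eIF1A, eIF5, eIF5B and eIF6), 5 of 5 were bound, and 5, 4 and 5 in the strongest peaks of replicates 1, 2 and 3. The eIF1A and eIF6 summits lay nearer to another gene, as did those of eIF3a and eIF4EHP in other groups. The eIF5 summit had no replicate summit within 100 bp. The elongation factor genes had 4 of 8 bound, with 4, 4 and 5 in the replicates. Among the eIF3 genes 4 of 16 were bound, with 5, 4 and 5 in the replicates, and among the eIF4 genes 3 of 13, with 4, 3 and 2. These 2 largest groups thus stood near the share of all coding genes. The eIF2 genes had 1 of 3 bound, with 2, 0 and 2 in the replicates, and the eIF2B genes 0 of 5, with 0, 0 and 1. Both eIF2A and eIF2D were bound, with 2, 1 and 2 in the replicates.

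The strongest summit of the set lay at eIF4EHP, which encodes a cap-binding relative of eIF4E that represses particular maternal mRNAs in the fly embryo. The peak (chr3R:24108914-24109447) had its summit 235 bp upstream of the eIF4EHP TSS and a signal of 2564, rank 36 of the IDR list. Its signal was 921, 659 and 994 in replicates 1, 2 and 3, at ranks 36, 32 and 41. All 3 replicates thus placed it among their strongest peaks. The summit lay nearer to the start of the divergent gene CG18428, at 141 bp, and the starts of both genes are 376 bp apart, so it cannot be given to either. The gene that encodes the general cap-binding protein, eIF4E1, was not bound, and its nearest IDR summit was 3250 bp away. The complete lists of replicates 1, 2 and 3 did hold summits 44, 21 and 14 bp from an eIF4E1 TSS, at ranks 6115, 29461 and 23238. The replicate 1 summit was among the strongest peaks of that replicate. Replicate 3 had a stronger summit 403 bp downstream of a TSS, at rank 10567. eIF4E3, eIF4E4, eIF4E5 and eIF4E7 had no summit within 500 bp in any complete list, and eIF4E6 had one in replicate 3 alone, at rank 27614.

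Among the other eIF4 genes only eIF4A and eIF4H1 were bound, both by weaker peaks of the IDR list. eIF4A, the helicase that unwinds the 5′ end of mRNAs, had a summit 10 bp downstream of an alternative start and 609 bp downstream of the canonical start (chr2L:5982121-5982624, signal 193, rank 6265). Replicates 2 and 3 matched it within 100 bp with signals of 68.8 and 67.4 at ranks 3917 and 7489, and replicate 1 did not. Replicate 1 had a summit 73 bp upstream of an eIF4A TSS, at rank 4050, so all 3 replicates were bound near an eIF4A start, though not at 1 position. eIF4H1, whose product is related to helicase cofactors, had a summit 45 bp downstream of its TSS (chrX:16448458-16448961, signal 170, rank 7291). Its matched signal was 99.5 in replicate 1, at rank 4432, and 20.6 in replicate 3, at rank 25262, with none in replicate 2. Replicate 3 also had a stronger summit 92 bp downstream of a TSS, with signal 39.6 at rank 13232. Only in replicate 1 was an eIF4H1 summit among the strongest peaks. The eIF4H1 paralog eIF4H2 and the scaffold gene eIF4G1 had no summit within 500 bp in any complete list. The paralog eIF4G2 had summits 18, 57 and 17 bp upstream of a TSS at ranks 11318, 4069 and 11841, without an IDR call. Its replicate 2 summit was among the strongest peaks of that replicate.

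eIF4B, another helicase cofactor, had its nearest IDR summit 4948132 bp away. It lies beyond the last IDR summit of 3L, at 22910139, together with 40 coding genes in all, a stretch in which the pooled relaxed list holds 5 peaks. The only factor gene on chromosome 4, eIF4G1, lies on an arm where 5 of 80 coding genes (6.25%) were bound. On the other arms between 25.4% and 28.9% were.

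Among the factors for start-site selection, subunit joining and subunit anti-association, eIF1 and eIF6 had the strongest summits. eIF1, which keeps the scanning complex from stopping at wrong codons, had a summit 103 bp upstream of its TSS with signal 1001 and rank 500. The replicates gave 311, 212 and 458 at ranks 704, 699 and 384. The same peak interval (chr3L:3222818-3223427) held a stronger summit, at rank 242 with signal 1383, which lay 306 bp upstream of eIF1 and 75 bp from the start of the divergent ribosomal protein gene RpL28. That summit ranked 265, 245 and 249 in the replicates. The start sites of the pair are 381 bp apart, and each of the 2 summits lay nearer to a different gene of it. This arrangement was seen in all 3 replicates.

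eIF6, whose product keeps the large subunit from joining too early, had a summit 107 bp upstream of its TSS with signal 1500 and rank 199 (chr2R:23850191-23850605). Its signals of 416, 504 and 600 ranked 393, 85 and 199 in the replicates. The start of the antisense RNA asRNA:CR45928 was nearer, at 78 bp. eIF5B, the GTPase of subunit joining, had a summit 136 bp upstream of an alternative start (chr3L:3460556-3460904, signal 592, rank 1366). It lay 238 bp downstream of the canonical start, in an untranslated exon. The eIF5B replicate signals of 191, 168 and 230 ranked 1704, 1073 and 1423. Both genes were thus among the strongest peaks of every replicate, with the ranks of eIF6 spread more widely than those of eIF5B.

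eIF1A, the partner of eIF1 in scanning, had a summit 114 bp upstream of a TSS (chr3R:18274299-18274802, signal 302, rank 3621). Replicate signals were 120, 58.8 and 121 at ranks 3392, 4759 and 3656, and the start of Vps39 lay nearer, at 105 bp. eIF5, which triggers GTP hydrolysis by eIF2, had the least secure call. Its IDR summit (chrX:15991766-15992269, signal 191, rank 6347) lay 44 bp upstream of a start shared with CG46312, and no replicate had a summit within 100 bp of it. The nearest replicate summits lay 274 and 174 bp upstream of a TSS in replicates 1 and 3, at ranks 7833 and 5008, and 6641 bp away in replicate 2.

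**Figure D2:**
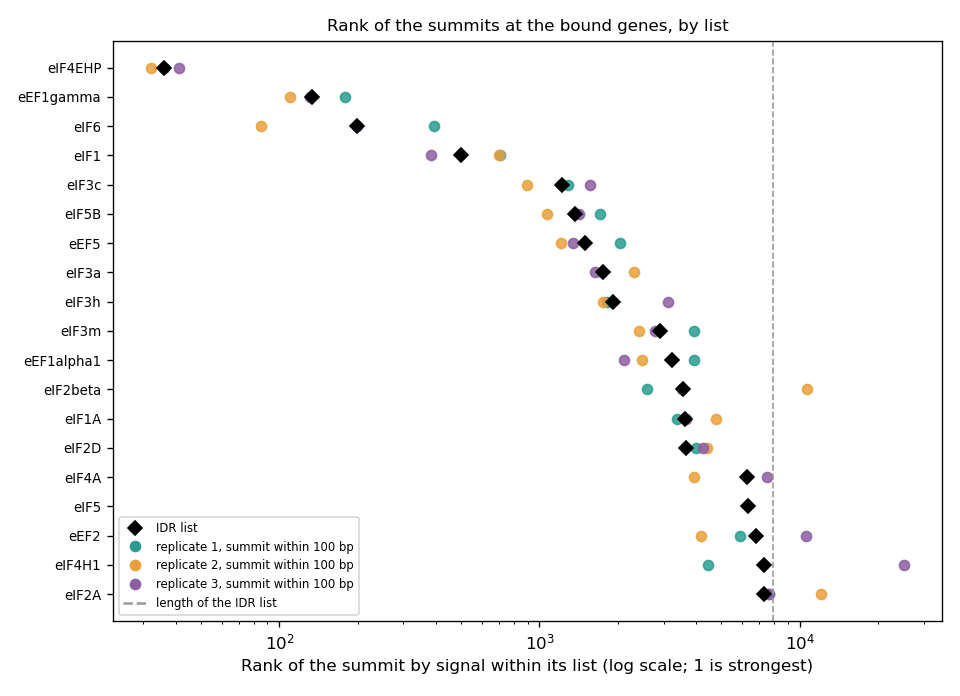
Rank by signal, on a logarithmic axis, of the IDR summit at each of the 19 bound genes (diamond) and of the summit within 100 bp of it in the complete list of each replicate (circles). The dashed line marks rank 7896. Every gene from eIF4EHP down to eIF2D had matched summits in all 3 replicates, while eIF4A, eIF4H1 and eIF5 lack at least 1.

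eIF2 carries the initiator tRNA to the ribosome as a complex of 3 subunits, and eIF2B recharges it with GTP. Only eIF2beta among these 8 genes was bound, with a summit 225 bp upstream of its TSS (chr3L:12526704-12527207, signal 306, rank 3563). Its signals in the replicates were 146, 29.6 and 124 at ranks 2598, 10643 and 3530. Replicate 2 was the low one. eIF2gamma was not bound but had summits 143 and 61 bp upstream in replicates 1 and 3, at ranks 6012 and 4800, with none in replicate 2. eIF2alpha had summits within 500 bp only in replicate 1, the nearest at rank 11049 and a stronger one at rank 10601, and its nearest IDR summit, 1717 bp away, was the one at eIF4H1.

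The genes just outside the window were both eIF2B genes. A summit 691 bp upstream of eIF2Bbeta was among the strongest peaks of the genome, at rank 7 with signal 3978 (chrX:2703606-2704155). It ranked 12, 5 and 7 in the replicates, with signals of 1224, 1152 and 1623, and lay 28 bp from the start of Ugalt, which diverges from eIF2Bbeta and encodes a transporter of UDP-galactose. eIF2Bdelta had an IDR summit at 745 bp, at rank 3900, which lay nearer to CG30414. Just inside the window, between 300 and 500 bp, no gene of the set had its nearest summit. eIF2Bdelta, eIF2Bepsilon and eIF2Bgamma each had weak summits within 500 bp in all 3 complete lists, and the nearest of these ranked from 10916 to 28831. eIF2Balpha had one in replicate 3 alone, at rank 7330.

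eIF2A and eIF2D bind initiator tRNA outside the eIF2 pathway, and eIF2D also recycles small subunits. eIF2D had a summit 165 bp upstream of its single TSS (chr3R:29151707-29152210, signal 300, rank 3643), with replicate signals of 107, 62.7 and 108 at ranks 4001, 4409 and 4258. The eIF2A summit, 8 bp upstream of its downstream start (chr3L:21824705-21825208, signal 170, rank 7313), was near the foot of the IDR list. Replicate signals were 65.5, 26.6 and 66.3 at ranks 7631, 12134 and 7622. Replicate 2 thus fell outside its strongest peaks at eIF2A and not at eIF2D.

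eIF3 is the multisubunit scaffold that holds the small subunit and the other factors together, and 4 of its genes were bound. eIF3c, a core subunit, had a summit 26 bp upstream of its TSS (chr2R:17665565-17665796, signal 633, rank 1216) with replicate signals of 226, 186 and 216 at ranks 1290, 899 and 1564. eIF3a, the other large core subunit, had its summit 44 bp upstream (chr3R:4433839-4434054, signal 509, rank 1756) and replicate signals of 189, 103 and 210 at ranks 1741, 2303 and 1631. The starts of eIF3a and the divergent CG1074 are 70 bp apart, and the summit with the DRE letters shown above lay between them, nearer to CG1074 at 26 bp.

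eIF3h and eIF3m encode 2 further subunits of the complex. At eIF3h the nearest summit lay 81 bp downstream of a TSS in coding sequence (chr2L:5052447-5052950, signal 475, rank 1915), with replicate signals of 183, 124 and 136 at ranks 1822, 1759 and 3133. A stronger summit lay 280 bp downstream of the same TSS, at rank 854 with signal 770, and ranked 923, 601 and 1158 in the replicates. Both summits lay downstream of both annotated eIF3h starts. The eIF3m summit, 51 bp upstream (chr2R:14164624-14165127, signal 355, rank 2898), had replicate signals of 109, 98.8 and 148 at ranks 3914, 2410 and 2782.

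The remaining 12 eIF3 genes were not bound, and the duplicated ones gave no bound copy. eIF3d1, eIF3d2 and eIF3g2 had no summit within 500 bp in any complete list, and eIF3g1, eIF3e, eIF3j and eIF3l had one in replicate 1 alone, while eIF3f2 had one in replicate 2 alone. eIF3f1, the start of which is shown above with TCT-like letters, had summits 13 bp downstream and 30 bp upstream of its TSS in replicates 1 and 3, at ranks 5502 and 6764, and none in replicate 2. eIF3b and eIF3k had weak summits in all 3 lists and eIF3i in replicates 1 and 3. The eIF3b summits, 34, 42 and 8 bp downstream of a TSS, ranked 9146, 13349 and 8201.

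Of the 8 elongation factor genes, the 4 bound ones each had a summit close to an annotated start. eEF1gamma, a subunit of the exchange complex that recharges eEF1alpha, had the second strongest summit of the set, 11 bp upstream of its TSS (chr3R:29219872-29220352, signal 1703, rank 133). Its signals of 559, 467 and 682 ranked 179, 110 and 131 in the replicates. It has no divergent neighbour within 1000 bp, and its summit window shown above holds the DRE letters. The genes of the other subunits, eEF1beta and eEF1delta, were not bound, and each had summits within 500 bp in 2 of the complete lists, the nearest of which ranked from 13044 to 20800. A further eEF1beta summit in replicate 3, 224 bp upstream at rank 7495, was among the strongest peaks of that replicate.

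eEF1alpha1, the carrier of aminoacyl-tRNA, had a summit 20 bp upstream of an alternative start and 706 bp downstream of its canonical start (chr2R:11891898-11892271, signal 331, rank 3222). Replicate signals were 108, 96.8 and 178 at ranks 3930, 2481 and 2113. A further IDR summit 363 bp upstream of another start, at rank 6203, lay 56 bp from the start of snoRNA:Me28S-A1322. Its paralog eEF1alpha2 was not bound, and had summits only in replicates 2 and 3, 19 and 20 bp upstream, at ranks 19993 and 14121.

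eEF5, the fly gene of the hypusine-carrying factor known elsewhere as eIF5A, had a summit 7 bp upstream of a TSS (chr2R:24057650-24057936, signal 561, rank 1497), with replicate signals of 169, 156 and 238 at ranks 2041, 1210 and 1349. eEF2, the translocase, had a summit 14 bp upstream of a TSS (chr2L:21681926-21682429, signal 181, rank 6770), with signals of 80.6, 65.4 and 49.3 at ranks 5906, 4188 and 10583. A stronger eEF2 summit lay 145 bp downstream, at rank 4514, and had no replicate 2 summit within 100 bp. eEFSec, the carrier of selenocysteine tRNA, was not bound. The ranks of eEF5 were thus close together and those of eEF2 were not.

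The bound summits of the factor genes were spread over the ranks of the list and lay close to the TSS. Their median rank was 2898 (quartiles 1291 and 4954), beside 3580 (1652 and 5612) for the 3770 bound coding genes. In the strongest peaks of replicates 1, 2 and 3 the median ranks were 3653, 2031 and 3332 for the factor genes and 3766, 3384 and 3545 for all bound coding genes. The gap in the IDR list was smaller than the SD of the factor genes' median over replicates, 859. Ranked among the 789 strongest IDR peaks were 4 of the 19 (21.1%), beside 13.1% of the bound coding genes. The median offset was −44.0 bp (quartiles −110 and −9.50 bp), beside −121 bp (−205 and −38.2 bp), and 10 of 19 summits (52.6%) lay within 50 bp of a TSS, beside 18.4%. In the strongest peaks of replicates 1, 2 and 3 the medians were −51.5, −53.0 and −37.5 bp for the factor genes and −113, −121 and −117 bp for all bound coding genes. Each replicate thus placed the factor genes' summits nearer to a start. A similar share lay upstream of the closest annotated TSS in both, 16 of 19 (84.2%) and 83.6%. Of these factor genes, eEF1alpha1, eIF2A and eIF5B had the summit inside the gene. It lay 706, 217 and 238 bp downstream of their canonical starts. Bound factor genes have a mean of 1.84 annotated TSSs, the unbound 1.27 and bound coding genes 1.75. More TSSs give a summit more chances to lie near one, and its part in the offsets was not tested.

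Replicate agreement at the bound factor genes was like that of other bound genes. The strongest peaks of all 3 replicates held a summit within 100 bp of 13 of the 19 IDR summits (68.4%), beside 65.4% of all bound coding genes. The complete lists held 16 (84.2%), beside 86.0%. The missing ones among the strongest peaks were eEF2, eIF2A, eIF2beta, eIF4A, eIF4H1 and eIF5. Counted by gene, 15 factor genes (28.8%) were bound in the strongest peaks of every replicate, beside 21.3% of all coding genes, and 27 (51.9%) in those of none, beside 66.9%.

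The choice of list and of TSS rule moved the count more than the choice of annotation did. In the complete relaxed lists, 36, 28 and 33 factor genes had a summit within 500 bp (69.2%, 53.8% and 63.5%), beside 52.0%, 47.7% and 50.4% of all coding genes. In the pooled relaxed list 35 did (67.3%), beside 50.1%. Of the 33 unbound genes, 7 (21.2%) had a summit within 500 bp in all 3 complete lists, namely eIF2Bdelta, eIF2Bepsilon, eIF2Bgamma, eIF3b, eIF3k, eIF4E1 and eIF4G2, beside 17.0% of the unbound coding genes. This share is near the background, and these lists hold background peaks by design.

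Within the IDR list, 17 genes (32.7%) were bound at 200 bp, beside 19.2% of all coding genes, and 21 (40.4%) at 1000 bp, beside 30.6%. The peak interval itself overlapped a TSS at 19 (36.5%), beside 19.9%, and 14 (26.9%) were bound by the 3948 strongest IDR peaks, beside 16.6%. When each summit counted only for its nearest TSS, 15 (28.8%) remained, beside 20.4%, and eIF1A, eIF3a, eIF4EHP and eIF6 were lost to a neighbour. Using only the canonical start, 17 (32.7%) were bound, beside 24.1%, without eEF1alpha1 and eIF4A. RefSeq transcript starts gave 19 (36.5%), beside 27.0% of 13921 matched coding genes. Across the settings of 200 bp, nearest TSS, overlap, the strongest IDR peaks and each replicate alone, 9 genes (17.3%) were always bound, beside 8.61% of all coding genes, and these were eEF1alpha1, eEF1gamma, eEF5, eIF1, eIF2D, eIF3c, eIF3h, eIF3m and eIF5B.

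Many bound factor genes had a close neighbour. A coding gene diverging within 1000 bp of any annotated TSS was present at 13 of the 19 bound factor genes (68.4%) and at 13 of the 33 unbound (39.4%), beside 64.2% of all bound coding genes and 36.2% of all coding genes. That TSS need not be the one at the summit. At eEF1alpha1, eEF5, eIF3c, eIF4A and eIF5B a gene diverged, but no other gene's TSS lay within 500 bp of the nearest summit. Another gene's TSS lay within 500 bp of the summit at 9 of the 19, which besides those already named included senju at eIF3h, CG8323 at eIF3m, exd at eIF5 and CG34015 at eIF4H1. The same share was not computed for all bound coding genes, so it is not known whether this count is unusual. For divergent neighbours, the shares of bound factor genes and of bound coding genes were thus close.

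Promoter letters were compared over the window from 250 bp before to 50 bp after a TSS, on both strands, as a description of sequence only. With canonical starts, a count chosen after the values were seen, TATAAA occurred at 14 of 19 bound factor genes (73.7%) and 10 of 33 unbound (30.3%), beside 45.3% of all coding genes and 45.3% of bound coding genes. Bound and unbound coding genes stood at 45.3% and 45.4%. DRE (TATCGATA) occurred at 6 of 19 (31.6%) and 8 of 33 (24.2%), beside 8.94% of all coding genes and 14.6% of bound ones, and at ribosomal protein genes in 30.4%. Motif 1 (GGTCACAC) occurred at 1 of 19 and 5 of 33, beside 7.54%. GAGAG was found at 7 of 52 (13.5%) and CAGCTG, an E-box, at 4 of 52 (7.69%), beside 30.3% and 17.9%.

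With any annotated start in place of the canonical one, DRE was at 7 of 19 bound and 8 of 33 unbound factor genes. It stood at 10.2% of all coding genes and 17.0% of bound ones. TATAAA was at the same 14 of 19 and 10 of 33 counts, beside 51.3% of all and 56.0% of bound coding genes. Motif 1 then occurred at 4 of 19 and 5 of 33, beside 8.71% of all and 14.4% of bound coding genes. GAGAG was at 15 of 52 (28.8%), beside 36.4% of all coding genes. CGATA, the letters shared with the DRE, occurred at 35 of 52 (67.3%), beside 53.1% of all coding genes. Among bound factor genes it was at 15 of 19 (78.9%), beside 66.0% of bound coding genes. Within 50 bp of the summit, the DRE letters were found at eEF1gamma and eIF3a alone of the 19 (10.5%), beside 1.75% of all IDR summits and 4.34% of the summits of bound coding genes. TATAAA was there at eIF4EHP, eIF5 and eIF6 (15.8%), beside 22.2% of all IDR summits. The TATAAA letters of the bound genes thus mostly lay outside the 101 bp around the summit.

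TCT-like starts, with T or C followed by CTTT and the C within 5 bp of an annotated TSS, were found at 6 of the 52 factor genes (11.5%), beside 3.31% of all coding genes and 60.9% of the 92 genes with RpL or RpS symbols. They were eEF2, eEF5, eIF3m and eIF4A among the bound and eIF3f1 and eIF3i among the unbound. Of the bound factor genes 4 of 19 (21.1%) and of the unbound 2 of 33 (6.06%) had one, beside 4.77% of all bound coding genes. These counts moved with the window. Within 2 bp they were 1 of 19 and 0 of 33, beside 1.91% of bound coding genes and 1.32% of all coding genes. Within 10 bp they were 7 of 19 (36.8%) and 7 of 33 (21.2%), beside 9.07% of bound coding genes and 6.35% of all. At eIF4A these letters lay at the canonical start, 609 bp from the summit.

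**Figure D3:**
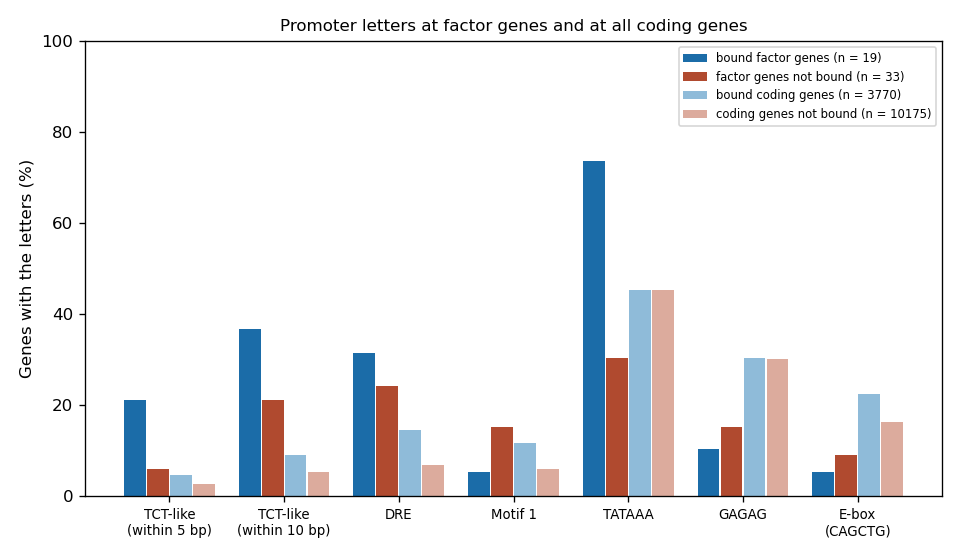
Percent of genes with the named letters, for bound and unbound factor genes and for bound and unbound coding genes. TCT-like starts are near any TSS, and the other letters are in the window from 250 bp before to 50 bp after the canonical TSS. TATAAA stands at 73.7% of the bound and 30.3% of the unbound factor genes, with both groups of coding genes near 45.3%.

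Ribosomal protein genes, synthetase genes and a list of other translation genes had higher shares bound than the initiation and elongation factors, a difference that was not tested. Cytoplasmic ribosomal protein genes, taken by symbol, were bound in 76 of 92 cases (82.6%), with 84.1% ± 1.66 (SD, n = 3) in the strongest peaks of the replicates. Aminoacyl-tRNA synthetase genes were bound in 16 of 33 cases (48.5%), with 44.4% ± 1.75 (SD, n = 3). A list of 36 further translation genes had 21 bound (58.3%), with 52.8% ± 4.81 (SD, n = 3). In each replicate the share of each of these 3 lists was above that of the factor genes. When each summit counted only for its nearest TSS, the synthetase genes fell to 10 of 33 (30.3%), little above the 28.8% of the factor genes, while ribosomal protein genes stood at 80.4% and the list of 36 at 47.2%.

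**Figure D4:**
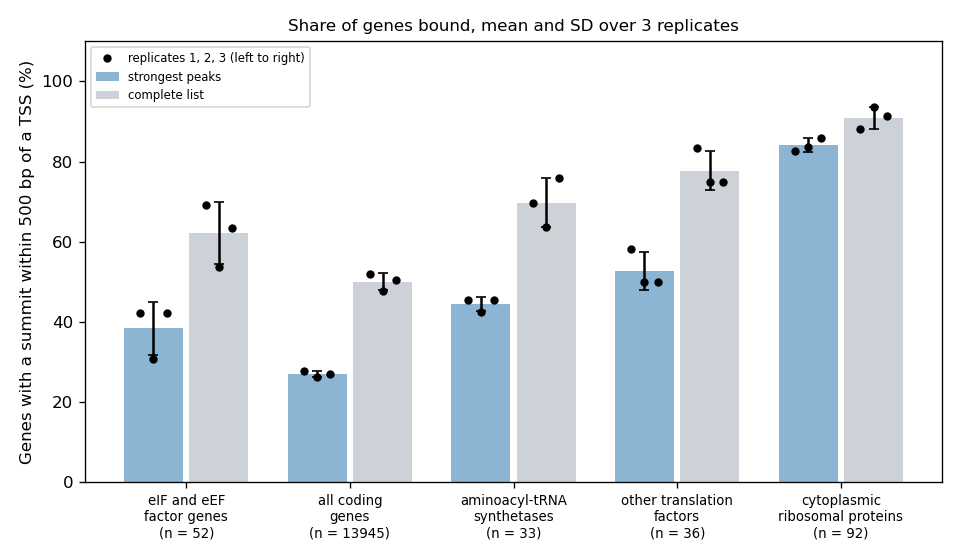
Percent of genes with a summit within 500 bp of a TSS in the 7896 strongest peaks (blue) and in the complete list (grey) of each replicate. Bars are means, whiskers SDs over 3 replicates, and points the replicates. The factor genes average 38.5% and ribosomal protein genes 84.1% in the strongest peaks.

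Within the list of 36, regulators of the cap and poly(A) step were bound at 8 of 11 genes, beside 27.0% of all coding genes, and at 8, 6 and 5 in the strongest peaks of replicates 1, 2 and 3. Thor, the eIF4E-binding repressor 4E-BP, had a summit 31 bp upstream of its TSS at rank 1700, and 1498, 2418 and 1767 in the replicates. The poly(A)-binding protein gene pAbp was bound at 487 bp, near the limit, and mxt, NAT1, Lk6, Pdcd4, bel and vas were bound as well, while Paip2, cup and 4E-T were not. Genes of termination and recycling were bound at 4 of 5, and at 4 in each replicate, namely eRF1, eRF3, pix and MCTS1 but not DENR. eRF1 and eRF3, which release the finished chain, and pix, which splits the ribosome, ranked 1789, 1303 and 1624 and were found among the strongest peaks of every replicate.

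Control genes of eIF2 and TOR were bound at 4 of 7, namely Gcn2, an eIF2alpha kinase, crc, the fly ATF4, mTor and S6k, beside 27.0% of all coding genes. The replicates gave 4, 3 and 4, and 2 of 7 (28.6%) remained when each summit counted only for its nearest TSS, beside 20.4%. PEK, PPP1R15 and raptor were not. The enzymes that modify eEF5 and eEF2 were bound at 3 of 5, Dhps, Dph1 and Dph2, but not nero or Dph5, and at 4, 3 and 3 in the replicates. Mitochondrial translation factors had 2 of 8 bound, mEFTu1 and mIF2, beside 27.0% of all coding genes. Their share in the replicates was 20.8% ± 7.22 (SD, n = 3).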

How the data were processed

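ChIP-seq peak lists of 3 replicates of CG9727-eGFP embryos were used on dm6. The authors called relaxed peaks in each replicate and in the pooled replicates against a control, and thresholded these by IDR, per the descriptions that come with the files. The deposited signal of each peak served to rank peaks inside a list. The deposited −log10 q served as an alternative ranking, and 80.0% of IDR peaks share its highest value, 4.10. The aligner, peak caller and IDR threshold were not given in the sources used here. No read counts were used, so depth is unknown. The relaxed lists hold 30000 peaks each, which is the length of the lists and not a depth.

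TSSs came from Ensembl release 115 (18164 genes, 23998 TSSs on 6 arms) and, as an alternative, RefSeq on the same assembly. Summits matched within 100 bp, the nearest summit stood for a gene, and positions count from 1. The deposited dm3 lists were not used. Every bound and unbound factor gene is named, as are the genes of the list of 36 other translation genes that were bound. Members and lists were chosen with earlier results of these data known, the role groups after the calls were seen, and mTor and mRRF2 were matched by older symbol. All results are descriptions without tests, computed with Python 3.11.15 and numpy 2.4.6 and drawn with matplotlib 3.10.9. The search for the nearest summit was tested on simulated summits, against a comparison of all distances. The 500 bp call was tried only on summits placed inside that window, so its limit was not tested. The matching of summits between lists was not tested. Alternatives changed the window, TSS rule, list, replicate and annotation.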

Additional observations from a re-analysis of the deposited data

How the results depend on the processing

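The count of 19 bound genes stayed within 1.5 times (14 to 22) under the other windows, TSS rules and annotation and with each replicate alone. This range includes the 3948 strongest IDR peaks, which gave the lowest count, 14. It rose to 35 with the pooled relaxed list, and the mean share rose from 38.5% to 62.2% with the complete replicate lists, both of which hold more peaks. Leaving out each replicate gave mean shares of 36.5% to 42.3% and 14 to 15 recovered genes, against 13. Canonical starts, added after the data were seen, gave 17 genes and a mean share of 35.9%. The count of 6 TCT-like starts depended on the window, and so did its split between bound and unbound genes. It was 1 (1.92%) within 2 bp and 14 (26.9%) within 10 bp, beside 1.32% and 6.35% of all coding genes. Ranking by −log10 q moved the median rank to 3160, with most peaks tied. No paired analysis was possible because there is only 1 group. Read depth is unknown, a missing summit does not show absence of binding, and 4 of the 19 summits lie nearer to another gene.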
